A study of Canis lupus familiaris with 25 samples.

Results

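The syndecans SDC1 to SDC4 and the glypicans GPC1 to GPC6 were examined in canine perianal tumors. These 10 genes were taken by symbol from the 24532 genes of the deposited count table, which lists each of them under its own name. The RNA came from 25 formalin-fixed paraffin-embedded (FFPE) archival samples of pet dogs, and the QuantSeq 3′ libraries made from it read a transcript once, close to its 3′ end. There were 10 hepatoid gland adenomas (HGA), a benign tumor of the perianal glands, 11 apocrine gland anal sac adenocarcinomas (AGASAC) taken at the primary site, which are malignant, and 4 metastases of AGASAC in sublumbal lymph nodes, taken from the same dogs as primary tumors 1 to 4. The labels give no treatment, no engineered genotype and no normal tissue, so every value is tumor against tumor. HGA came from 2 intact and 3 neutered females, 4 intact males and 1 neutered male aged 8 to 14 years. Primary AGASAC came from 2 intact and 3 neutered females and 6 neutered males aged 8 to 12.5 years, and the metastases from 1 intact female, 1 neutered female and 2 neutered males aged 8 to 10 years.

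Both families are cell surface proteoglycans, that is, core proteins that carry long sugar chains, above all heparan sulfate. The chains hold growth factors, chemokines, proteases and matrix proteins and present them to their receptors, so that both families act as co-receptors, for example for fibroblast growth factors. Syndecans cross the membrane and bind scaffold and cytoskeletal proteins inside the cell, whereas glypicans are fixed to the outer leaflet by a lipid anchor and modulate Wnt, Hedgehog and BMP signaling. Cells of stratified epithelia are rich in SDC1, which plasma cells also carry.

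Between 1562347 and 6389555 reads were counted on genes in a sample, so that a count of 0 allows up to 3 counts, or 0.543 to 1.84 CPM (counts scaled to the library size). Some keratins went with the labels. KRT5 and KRT14 were at 422 CPM or more in every HGA and at most 18.1 CPM in AGASAC. KRT8 and KRT19 were at 227 CPM or more in every AGASAC and at most 1.62 CPM in HGA. The whole list of 7 simple gland markers still summed to 586 to 2027 CPM in HGA, beside 4330 to 7350 CPM in primary AGASAC. That of 7 squamous markers summed to 3298 to 12939 CPM in HGA and 58.4 to 219 CPM in primary AGASAC. The library labelled HGA 10 stood apart by its sebaceous genes, whose sum was 3226 CPM against a median of 83127 CPM over the 10 HGA and 1475 to 3544 CPM in primary AGASAC. Its CIDEA (386 CPM) and KRT79 (39.1 CPM) nevertheless lay above every AGASAC sample, where neither gene exceeded 0.34 CPM. The differences of SDC1 and SDC2 between HGA and primary AGASAC are given with and without it. So is how many of the 10 genes and of all genes differed. RNA extraction batches 5, 6 and 8 held both tumor types, with 2 or 3 tumors of each. The sequencing files carried names of 2 series, one with 9 HGA and 3 primary AGASAC and the other with 1 HGA and 7 primary AGASAC, and no series was given for primary AGASAC 4.

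In HGA versus primary AGASAC, 7 of the 10 genes were tested and 3 were called, all higher in HGA, namely SDC1, GPC1 and GPC4. The syndecan SDC1 was 37.4-fold higher, and the glypicans GPC4 and GPC1 were 6.95-fold and 4.17-fold higher. SDC2, SDC3, SDC4 and GPC3 were tested and not called, and GPC2, GPC5 and GPC6 were left out by the filter on low counts. A gene was called when edgeR's quasi-likelihood test, adjusted over all genes by Benjamini-Yekutieli, gave an adjusted p of at most 0.05 with a log2 fold change (log2FC) of at least 1 in either direction. Of all 12070 genes tested, 3032 were called (25.1%), 12.6% higher and 12.5% lower in HGA. The CPM of all 10 HGA lay above those of all 11 primary AGASAC for the same 3 genes, whereas 9.13% of all genes tested had groups without overlap, 4.37% higher and 4.76% lower in HGA.

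**Figure D1:**
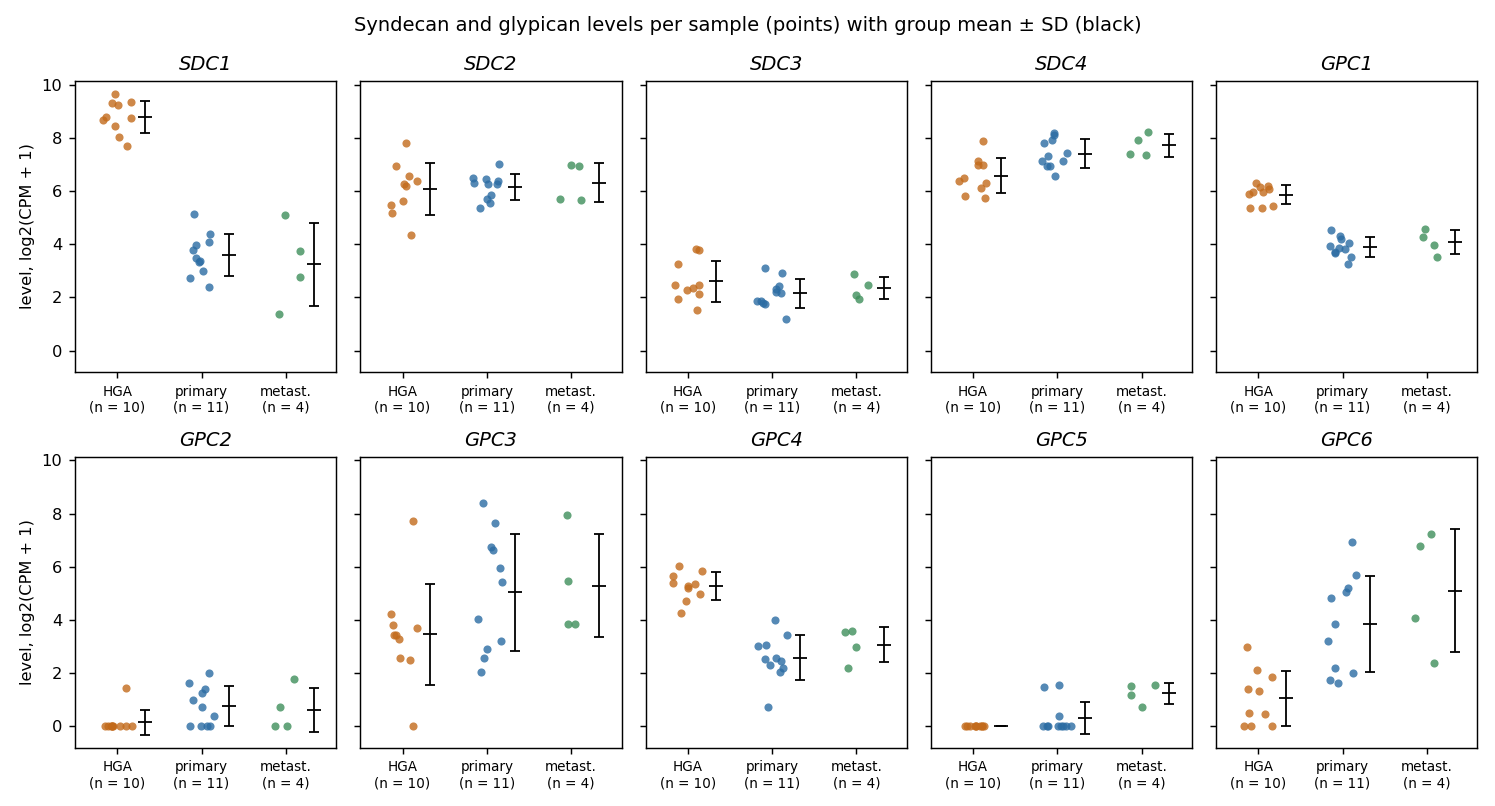
Level of each syndecan and glypican in the 25 samples, as log2(CPM + 1), for 10 HGA, 11 primary AGASAC and 4 metastases. Points are samples and black marks are the group mean ± SD. SDC1, GPC1 and GPC4 are above every AGASAC sample in all 10 HGA, GPC3 and GPC6 spread widely, and GPC2 and GPC5 lie near 0.

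SDC1, the syndecan of stratified epithelia and plasma cells, ranged from 209 to 797 CPM in HGA with a median of 436 CPM. In primary AGASAC its lowest value was 4.22, its median 10.1 and its highest 34.6 CPM. The lowest HGA thus lay 6.03-fold above the highest primary AGASAC, and no sample of either type came near the other group. The log2FC was 5.23 ± 0.35 (SE), with an adjusted p of 4.78e-10 by edgeR's quasi-likelihood test. It was 5.25 without HGA 10 and was called within each of extraction batches 5, 6 and 8, at 5.70, 5.44 and 5.04. Within the series of file names that held 9 HGA and 3 primary AGASAC, SDC1 (6.12), GPC1 (2.28) and GPC4 (2.45) were all called. In bulk tumor RNA, more cells of a type and more RNA per cell cannot be told apart.

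Marker lists moved with SDC1 in different directions. The 7 squamous epithelial markers summed to 3298 to 12939 CPM in HGA and to 58.4 to 219 CPM in primary AGASAC, and 5 of the 6 tested were called higher in HGA. Plasma cell markers, from cells that also carry SDC1, had the opposite order of medians. All 7 summed to 19.1 to 122 CPM in HGA with a median of 34.5 CPM, against 38.9 to 215 CPM and a median of 108 CPM in primary AGASAC. None of the 2 plasma cell markers tested was called. Of the 7 sebaceous markers, all tested, 5 were called higher in HGA, with sums of 3226 to 121268 CPM against 1475 to 3544 CPM, and HGA 10 lay inside the AGASAC range. Of the 7 simple gland markers, all tested, 5 were called lower, with sums of 586 to 2027 against 4330 to 7350 CPM.

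Markers of other cells in the tissue moved as well. The 6 endothelial markers summed to 208 to 567.7 CPM in HGA and 51.6 to 240 CPM in primary AGASAC, and 1 of the 5 tested (CDH5) was called higher in HGA. The 6 smooth muscle and pericyte markers had overlapping sums, 115 to 512 against 75.0 to 479 CPM, and 1 of the 5 tested (RGS5) was called higher. The 6 skeletal muscle markers summed to 1.71 to 19.7 CPM in HGA and 4.13 to 770 CPM in primary AGASAC, and the 1 tested (ACTA1) was called lower. The 5 Schwann cell markers summed to 0.61 to 13.6 CPM in HGA and 9.96 to 93.7 CPM in primary AGASAC, and the 1 tested (MBP) was called lower. The part of these cell types in the differences of the 10 genes was not tested.

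SDC2, the syndecan best known from mesenchymal cells, had a median of 74.2 CPM in HGA, from 19.5 to 226 CPM, and of 76.7 CPM in primary AGASAC, from 40.1 to 129 CPM. HGA 10 alone was above all primary AGASAC, HGA 4 and HGA 9 were below them, and the other 7 HGA lay inside the AGASAC range. The log2FC was 0.18 ± 0.31 (SE, 95% interval −0.46 to 0.82) and turned to −0.14 without HGA 10. SDC3, a syndecan of nerve and muscle, had the lowest median of the syndecans in each group, with 3 to 31 counts per HGA and 4 to 22 per primary AGASAC. Its log2FC was 0.70 ± 0.38 (SE, 95% interval −0.08 to 1.47), which was not called, with 3 HGA above all primary AGASAC.

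SDC4, a widely expressed syndecan of focal adhesions, had the opposite tendency. In HGA it ranged from 52.9 to 237 CPM with a median of 84.5 CPM, and in primary AGASAC from 93.3 to 289 CPM with a median of 157 CPM. Of the 10 HGA, 6 lay below all primary AGASAC and none above. The log2FC was −0.74 ± 0.26 (SE, 95% interval −1.29 to −0.20), which missed the call with an adjusted p of 0.239 by the edgeR quasi-likelihood test after Benjamini-Yekutieli adjustment and gave 0.0240 with Benjamini-Hochberg adjustment. Without HGA 4, the highest HGA at 237 CPM, the log2FC was −0.97 and the Benjamini-Yekutieli adjusted p of the same edgeR test 0.0185, which passed the p threshold but not the fold required for a call.

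**Figure D2:**
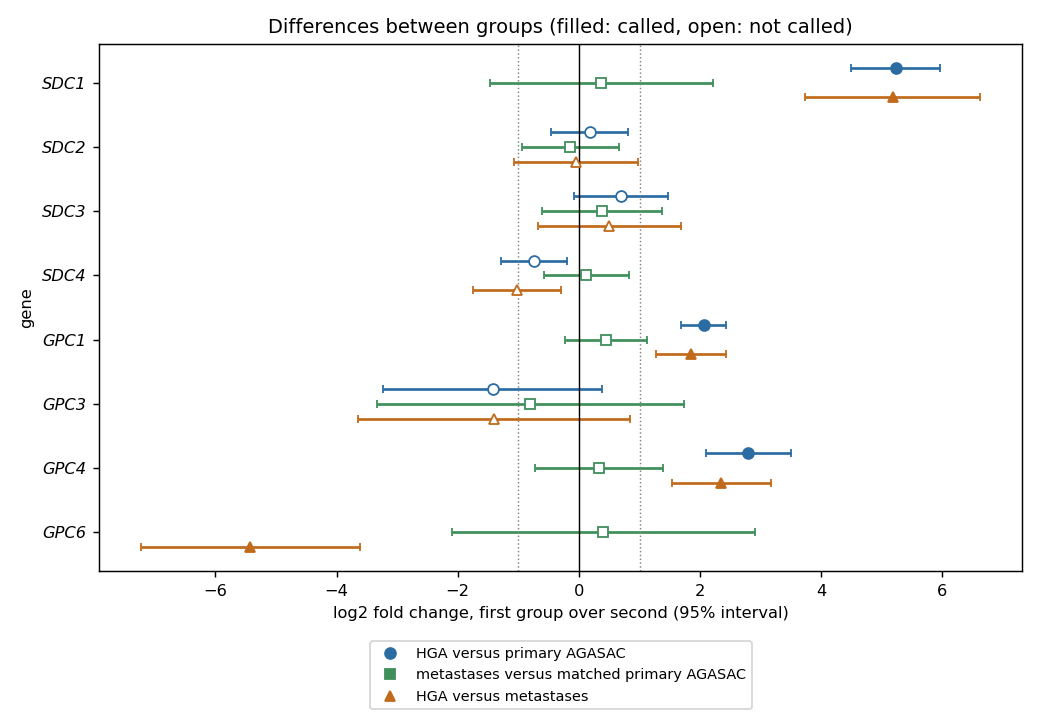
Log2 fold change of each gene that passed the filter (x axis, first group over second) with its 95% interval, in HGA versus primary AGASAC (circles), metastases versus matched primary AGASAC (squares) and HGA versus metastases (triangles). Filled symbols are called. SDC1, GPC1 and GPC4 are right of the dotted line at 1 in both comparisons of HGA, which share the HGA samples, GPC6 is far left in HGA versus metastases, and all squares are open.

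Among the glypicans, GPC1, the most widely expressed one in adult tissues, ranged from 40.0 to 78.2 CPM in HGA (median 61.7 CPM) and from 8.60 to 22.4 CPM in primary AGASAC (median 13.6 CPM). Both groups were narrow and apart, the lowest HGA being 1.78-fold above the highest primary AGASAC. The log2FC was 2.06 ± 0.18 (SE, adjusted p 2.19e-08 by the edgeR quasi-likelihood test after Benjamini-Yekutieli adjustment). The SD of its log2(CPM + 1) was 0.35 in HGA and 0.36 in primary AGASAC, below that of most genes (medians 0.63 and 0.54).

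GPC4, a glypican also released by fat tissue as an insulin-sensitizing factor, ranged from 18.3 to 64.9 CPM in HGA (median 39.1 CPM) and from 0.67 to 14.9 CPM in primary AGASAC (median 4.74 CPM). The gap between the groups was small, the lowest HGA lying 1.23-fold above the highest primary AGASAC, while the medians differed 8.24-fold. The log2FC was 2.80 ± 0.34 (SE, adjusted p 3.82e-06 by the edgeR quasi-likelihood test after Benjamini-Yekutieli adjustment). Within extraction batches, GPC4 was called in batch 5 only (log2FC 3.57, adjusted p 0.0430), with 3.03 in batch 6 (adjusted p 0.0911) and 1.64 in batch 8 (adjusted p 0.502). GPC1 was called in none of the 3 by the same edgeR test, with a log2FC of 2.06 in batch 5, 2.13 in batch 6 and 2.26 in batch 8 and adjusted p-values of 0.200, 0.132 and 0.0642.

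GPC3, an oncofetal glypican that restrains Hedgehog signaling, spread widely within each tumor type. In primary AGASAC its lowest value was 3.1, its median 42.1 and its highest 334 CPM, with primary 1 at 334 CPM, primary 11 at 199 CPM and primary 3 at 106 CPM. In HGA the median was 9.73 CPM, HGA 10 had 0 counts, HGA 4 had 208 CPM and the other 8 had 4.69 to 17.8 CPM. The log2FC was −1.43 ± 0.87 (SE, 95% interval −3.23 to 0.38) and was not called. Without HGA 4 it was −3.12, with an adjusted p of 0.0228 by the edgeR quasi-likelihood test after Benjamini-Yekutieli adjustment, and GPC3 then counted as called. Its SD on the log2(CPM + 1) scale was 2.2 in primary AGASAC, larger than in 98.8% of 12455 genes, and 1.90 in HGA, larger than in 98.5% of 11598 genes.

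GPC6, a glypican that promotes Hedgehog signaling in growing tissue, was nearly absent from HGA. HGA had 0 to 12 counts, with 3 HGA at 0 and 6 at no more than 3 counts, and primary AGASAC had 6 to 400 counts. On the CPM scale the medians were 0.96 in HGA and 13.4 in primary AGASAC, whose lowest value was 2.1 and highest 121 CPM, and 7 of the 10 HGA lay below all primary AGASAC. At least 10 counts were found in 1 HGA and 9 primary AGASAC, and GPC6 stayed below what the filter requires. With no filter, edgeR's quasi-likelihood test gave a log2FC of −4.11 ± 0.80 (SE) with a Benjamini-Yekutieli adjusted p of 0.00270, and the Wald test of DESeq2 gave −4.06 with an adjusted p of 3.19e-06. Both would call it lower in HGA. It too spread widely in primary AGASAC, with an SD of 1.82 on the log2(CPM + 1) scale that was larger than in 97.5% of genes. The 8 fibroblast markers summed to 1348 to 6181 CPM in HGA and 1056 to 8181 CPM in primary AGASAC, ranges that overlapped. None of the 8 was called, and 3 had an unadjusted p under 0.05 in the edgeR test. The part of fibroblasts in the GPC6 values was not tested.

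GPC2, a glypican of the developing nervous system, had 0 counts in 9 HGA and 4 counts in HGA 9, and 0 to 10 counts in primary AGASAC. GPC5, known from fetal tissue and brain, had 0 counts in all 10 HGA and in 8 primary AGASAC, and at most 6 counts in the others. At this depth neither gene could be measured. With no filter, the edgeR test gave them adjusted p-values of 1 and 0.315.

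The make-up of the 10 genes differed accordingly. QuantSeq 3′ counts are not scaled to transcript length, since each transcript gives its reads at the 3′ end, and how completely that end is annotated can still differ between genes. SDC1 was the most abundant of the 10 in all 10 HGA, with 42.7 to 73.6% of their summed CPM (median 57.5%). It made up 0.50 to 11.2% in primary AGASAC (median 3.43%), where SDC4 led in 9 tumors and GPC3 in 2. In order of the median, HGA had SDC1, SDC4, SDC2, GPC1, GPC4, GPC3, SDC3 and GPC6, and the ranges of all neighbors overlapped, those of SDC1 and SDC4 and of GPC4 and GPC3 only through the high SDC4 and GPC3 of HGA 4. Primary AGASAC had SDC4, SDC2, GPC3, GPC1, GPC6, SDC1, GPC4 and SDC3, and the ranges of all neighbors overlapped.

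The leading glypican was GPC1 in 7 HGA, GPC4 in 2 and GPC3 in 1. In primary AGASAC it was GPC3 in 6, GPC6 in 3 and GPC1 in 2. The 6 glypicans together summed to 84.8 to 305 CPM in HGA (median 111 CPM) and 25.5 to 478 CPM in primary AGASAC (median 72.8 CPM), so that their totals overlapped while the leading genes differed. The 4 syndecans summed to 312 to 949 CPM in HGA (median 732 CPM) and 163 to 390 CPM in primary AGASAC (median 248 CPM).

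**Figure D3:**
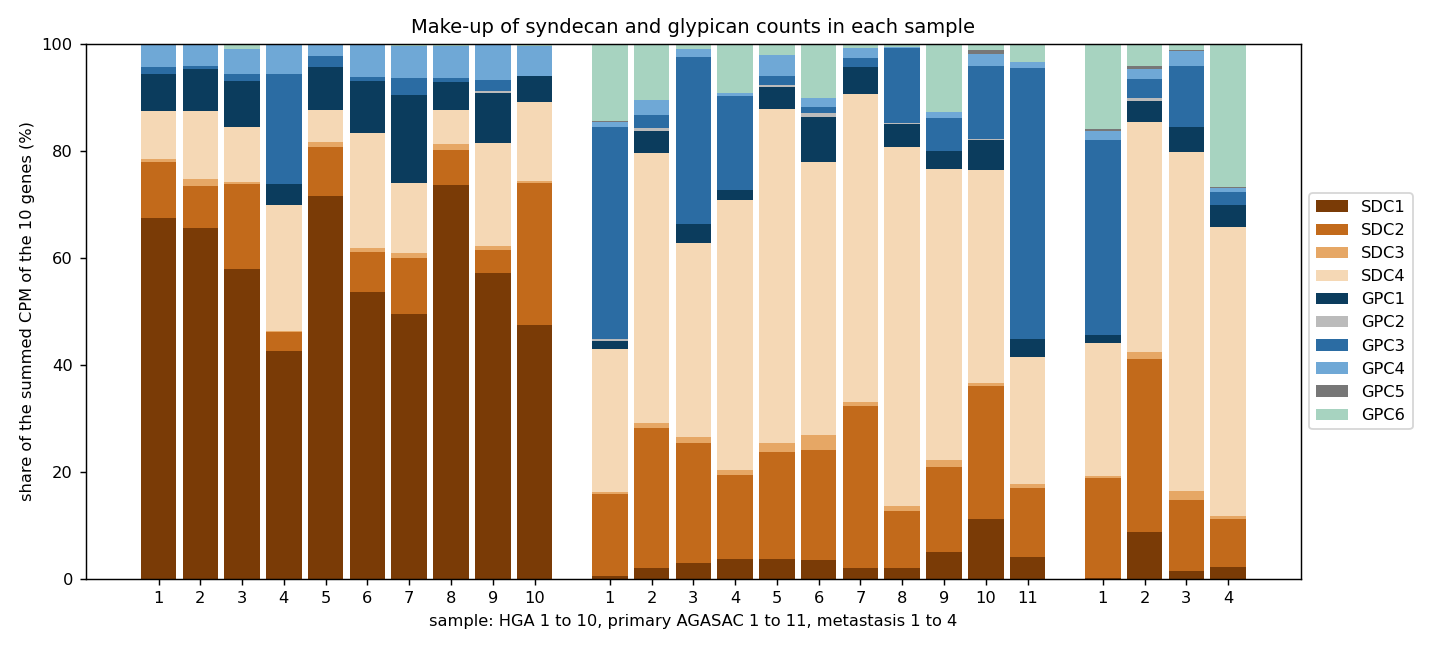
Share of each gene in the summed CPM of the 10 genes (y axis, %), 1 bar per sample (x axis, from left HGA 1 to 10, primary AGASAC 1 to 11 and metastasis 1 to 4). SDC1 (dark brown) fills 42.7 to 73.6% of each HGA bar and at most 11.2% of each primary AGASAC bar, where SDC4 (light orange) is mostly the largest part and GPC3 (blue) and GPC6 (light green) vary.

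Each of the 4 metastases has its own primary tumor in the labels, and the 2 groups of 4 were compared without a term for the dog. The SE and intervals of this comparison therefore include differences between dogs and do not measure the change within a dog alone. None of the 10 genes was called, none of the 8 tested had an unadjusted p under 0.05, and the Wald test of DESeq2 also called none of them. Of all 12629 genes tested, 0 were called (0.0%), 145 had an unadjusted p under 0.05 in the edgeR test, and DESeq2 called 5. With the dog as a replicate block, 0 of the 10 genes and 1 of all genes were called.

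SDC1 was 4.22, 6.86, 10.1 and 20.01 CPM in the primary tumors of dogs 1 to 4 and 1.62, 32.9, 5.79 and 12.5 CPM in their metastases. It was lower in the metastases of 3 dogs and 4.79-fold higher in that of dog 2. The log2FC, metastasis over primary, was 0.37 ± 0.81 (SE, 95% interval −1.47 to 2.21) and −0.06 with the dog as a replicate block, so the design could not settle its direction. All metastases stayed below the lowest HGA.

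SDC4 was 225, 172, 123 and 278 CPM in the primary tumors and 168, 162, 241 and 300 CPM in the metastases of dogs 1 to 4, a log2FC of 0.12 ± 0.31 (SE, 95% interval −0.58 to 0.83). It was higher in 2 dogs and lower in 2. For GPC1, which was 12.1, 14.4, 11.9 and 10.6 CPM in the primary tumors and 10.4, 14.6, 18.3 and 23 CPM in the metastases, the log2FC was 0.44 ± 0.30 (SE, 95% interval −0.23 to 1.12). The intervals of SDC2 (−0.94 to 0.66), SDC3 (−0.61 to 1.37) and GPC4 (−0.73 to 1.39) likewise included 0.

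For GPC3 and GPC6, the primary tumor and the metastasis of a dog were mostly closer to each other than samples of different dogs were. GPC3 was 334, 8.17, 106 and 97.0 CPM in the primary tumors of dogs 1 to 4 and 247, 13.5, 43.4 and 13.4 CPM in the metastases, with dog 1 highest at both sites. GPC6 was 121, 35.6, 2.97 and 50.0 CPM in the primary tumors and 108, 15.7, 4.18 and 148 CPM in the metastases, with dog 3 lowest at both. The median absolute log2 difference between the metastasis and the primary tumor of the same dog was 0.97 for GPC3 and 0.76 for GPC6, against 2.82 and 2.45 between samples of different dogs on the log2(CPM + 1) scale (4 and 12 pairs). Samples of the same dog also correlated over 12629 genes, with r of 0.428 to 0.730, so this likeness was not particular to GPC3 and GPC6. The medians had the same order for SDC1 (0.85 within and 1.48 between dogs), SDC2 (0.51 and 0.69) and SDC4 (0.26 and 0.46). They also had it for GPC1 (0.39 and 0.43), GPC4 (0.50 and 0.64) and, at few counts, GPC2 and GPC5. For SDC3 the order was the other way, with 0.55 within and 0.25 between dogs. These medians are a description of 4 dogs and were not tested. The log2FC was −0.80 ± 1.12 (SE) for GPC3 and 0.40 ± 1.11 (SE) for GPC6.

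**Figure D4:**
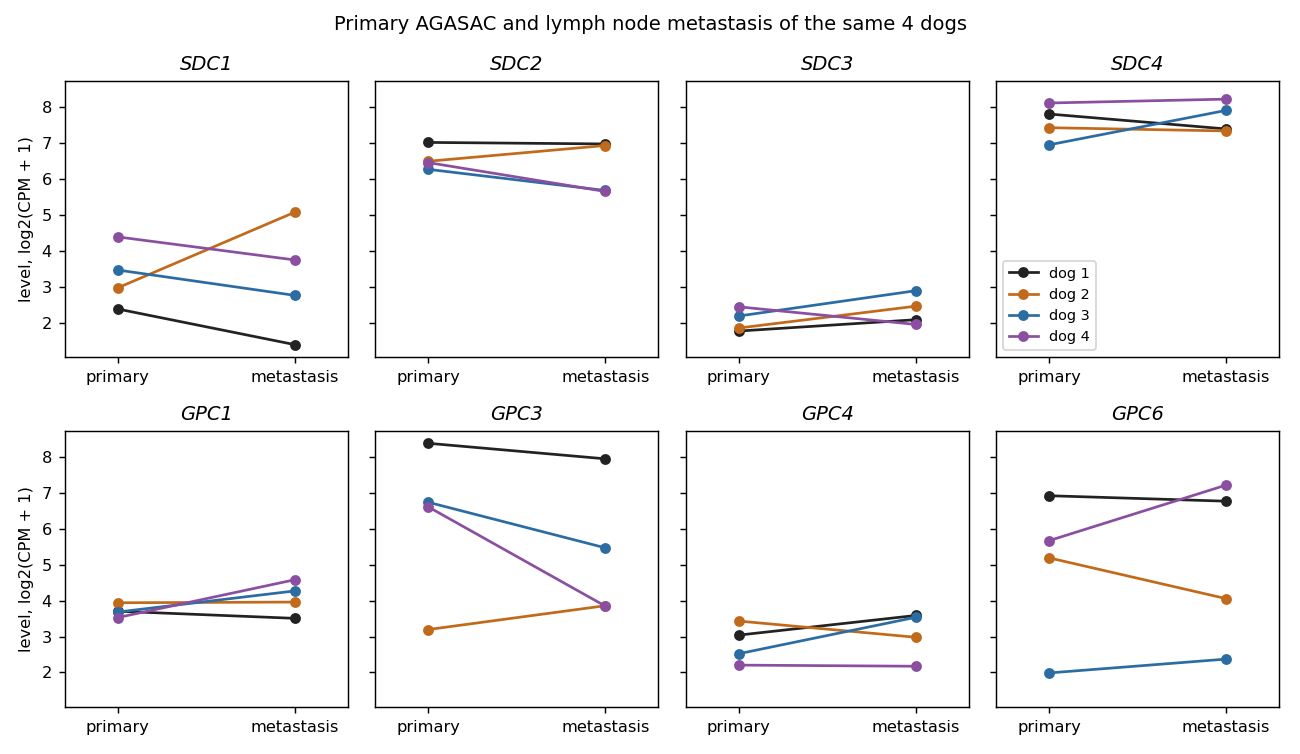
Level of the 8 tested genes, as log2(CPM + 1), in the primary AGASAC and the metastasis of each of 4 dogs, joined by a line per dog. Lines cross or run level with no common direction. For GPC3 and GPC6 some dogs lie far apart and others close together. GPC3 is close in the primary tumors of dogs 3 and 4 and in the metastases of dogs 2 and 4. GPC6 is close in the metastases of dogs 1 and 4, whose lines cross.

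GPC5 was counted in all 4 metastases, with 6, 7, 2 and 4 counts in dogs 1 to 4, beside 6, 0, 1 and 0 counts in their primary tumors and 0 in all HGA. GPC2 had 2, 9, 0 and 0 counts in the metastases. Neither passed the filter, and with no filter the edgeR test gave a log2FC, metastasis over primary, of 1.39 ± 1.25 (SE) for GPC5 and −0.62 ± 1.46 (SE) for GPC2, each with an adjusted p of 1. The 7 B cell markers, which could come from the lymph node, summed to 23.9 to 46.4 CPM in the metastases and 14.8 to 45.5 CPM in all 11 primary AGASAC, and none of the 4 tested was called. The 7 T cell markers summed to 43.1 to 67.2 CPM in the metastases and 16.7 to 113 CPM in primary AGASAC. The 6 skeletal muscle markers summed to 0.32 to 1.61 CPM in the metastases, below the 4.13 to 770 CPM of primary AGASAC, and the 1 tested was not called. The part of these cells in the values of the 10 genes was not tested.

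HGA versus metastases uses the same HGA samples again, so the values are given beside those above and not as a second test of them. SDC1 was higher in HGA with a log2FC of 5.18 ± 0.68 (SE, adjusted p 0.000284 by the edgeR quasi-likelihood test after Benjamini-Yekutieli adjustment), GPC1 with 1.85 ± 0.27 (SE, adjusted p 0.000894) and GPC4 with 2.35 ± 0.39 (SE, adjusted p 0.00224). GPC6 was lower in HGA, with a log2FC of −5.42 ± 0.86 (SE, adjusted p 0.00157 by the same edgeR test). It passed the filter here only through the 4 metastases, which had 13 to 464 counts, as 1 HGA had at least 10. That call thus depended on the group in which GPC6 was high. Of the 10 genes 8 were tested here and 4 called, SDC1, GPC1, GPC4 and GPC6, beside 16.1% of all 13195 genes tested, 8.4% higher and 7.69% lower in HGA. The CPM of HGA and metastases did not overlap for SDC1, GPC1 and GPC4, with HGA higher. For GPC5, HGA had 0 counts and the metastases 2 to 7 counts (0.64 to 1.95 CPM). A count of 0 allows 0.543 to 1.84 CPM in HGA, so whether the groups overlap for GPC5 could not be told. Groups without overlap were found for 16.1% of all genes tested, 7.38% higher and 8.72% lower in HGA. GPC5 was not among the genes tested and was not called with no filter (adjusted p 0.0613 by the edgeR test), and for GPC6 9 of the 10 HGA lay below all 4 metastases. Without HGA 4, SDC4 (log2FC −1.25, adjusted p 0.0284) and GPC3 (log2FC −3.1, adjusted p 0.0369) were also called by the edgeR test.

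The genes that build, trim and read heparan sulfate chains were examined in 6 lists of 81 genes, of which 77 were found in the table by symbol and 50 passed the filter in HGA versus primary AGASAC. Of these, 16 were called, 12 higher and 4 lower in HGA, which is 32% beside 25.1% of all genes. Their median log2FC was 0.51, beside −0.03 over all genes tested. With no filter, 6 of the 27 list genes left out of the test were called by the edgeR test. They were 2 higher in HGA (SPOCK1 and HS6ST2) and 4 lower (MMP7, SPOCK3, HS3ST5 and EXTL1). HS6ST2 just passed (adjusted p 0.0345 by the edgeR test) and was not called by DESeq2 (unadjusted p 0.0660, Wald test). Its median in HGA was 0.41 CPM, near the limit of counting, and its highest HGA had 24.6 CPM (40 counts). Of all genes in the edgeR fit with no filter 16.2% were called, a share that includes the genes that passed the filter. It is therefore not the share among genes with few counts.

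Of the 10 tested genes that start and extend the chain, 2 were called higher in HGA, the galactosyltransferases B4GALT7 and B3GALT6 of the linker to the core protein, both with a log2FC of 1.04. Both were at the edge of the call, which B4GALT7 kept in 5 and B3GALT6 in 15 of 21 fits that left out 1 tumor, and EXT1 and EXT2, which polymerize the chain, were not called (0.74 and −0.29). Of the 6 tested genes of sulfation and epimerization, 1 was called, the 3-O-sulfotransferase HS3ST1. It ranged from 0 to 46.0 CPM in HGA (median 10.54 CPM) and from 4.89 to 321 CPM in primary AGASAC (median 154 CPM). The groups overlapped in part, and the log2FC was −3.1 ± 0.68 (SE, adjusted p 0.00582 by the edgeR quasi-likelihood test after Benjamini-Yekutieli adjustment).

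Of the 8 tested genes that trim the chain or release the core protein, 2 were called, both proteases and both higher in HGA. MMP14, a membrane-bound metalloproteinase that can shed SDC1, ranged from 162 to 535 CPM in HGA and from 36.9 to 87.5 CPM in primary AGASAC, with no overlap and a log2FC of 2.35 ± 0.21 (SE, adjusted p 5.34e-08 by the edgeR quasi-likelihood test after Benjamini-Yekutieli adjustment). ADAM10, another membrane-bound sheddase, had a log2FC of 1.18 ± 0.25 (SE). MMP7, a secreted protease that can shed SDC1 and that was singled out after its values were seen, had 0 counts in all 10 HGA and 1.63 to 199 CPM in primary AGASAC. It did not pass the filter and was called lower in HGA with no filter (adjusted p 0.000369 by the edgeR quasi-likelihood test). The sulfatases SULF1 and SULF2 (log2FC −0.85 and −0.60) and heparanase HPSE (−1.66) were not called.

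Other heparan sulfate proteoglycans included 3 of 6 tested genes called, all higher in HGA. They were the TGF-beta co-receptor TGFBR3 (log2FC 2.79 ± 0.22, SE), the basement membrane collagen COL18A1 (2.02 ± 0.30, SE) and agrin, AGRN (1.80 ± 0.24, SE). SPOCK1, a secreted proteoglycan named after its values were seen, ranged from 0 to 402 CPM in HGA with HGA 10 at 0, and had 0 counts in all 11 primary AGASAC and all 4 metastases. It also failed the filter, having counts in 9 tumors, and was called higher in HGA with no filter (adjusted p 4.25e-06 by the edgeR quasi-likelihood test). Its relative SPOCK3 had at most 0.41 CPM in HGA and 0 to 110 CPM in primary AGASAC (median 4.17 CPM), and was called lower in HGA with no filter (adjusted p 0.000554 by the same test). Of the 7 tested cytoplasmic partners of syndecans, TIAM1, a Rac activator that binds syndecan tails, was called higher in HGA (3.50 ± 0.35, SE) and the actin linker EZR lower (−1.30 ± 0.18, SE), while the adaptor SDCBP was level (−0.02 ± 0.17, SE).

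Among 13 tested ligands and FGF receptors, 4 were called higher and 2 lower in HGA. FGFBP1, which frees fibroblast growth factors from heparan sulfate, ranged from 209 to 1159 CPM in HGA and from 0 to 18.9 CPM in primary AGASAC (log2FC 7.13 ± 0.74, SE). LPL, a lipase held at the cell surface by heparan sulfate, had a log2FC of 4.41 ± 0.59 (SE), and the matrix ligand FN1 one of −2.73 ± 0.53 (SE). The other 3 were called as well, the growth factors HBEGF (2.30 ± 0.48, SE) and PDGFA (1.57 ± 0.34, SE) upward and the receptor FGFR1 (−2.64 ± 0.25, SE) downward in HGA. FGFR1 ranged from 20.3 to 90.8 CPM in HGA and from 178 to 598 CPM in primary AGASAC, with no overlap.

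**Figure D5:**
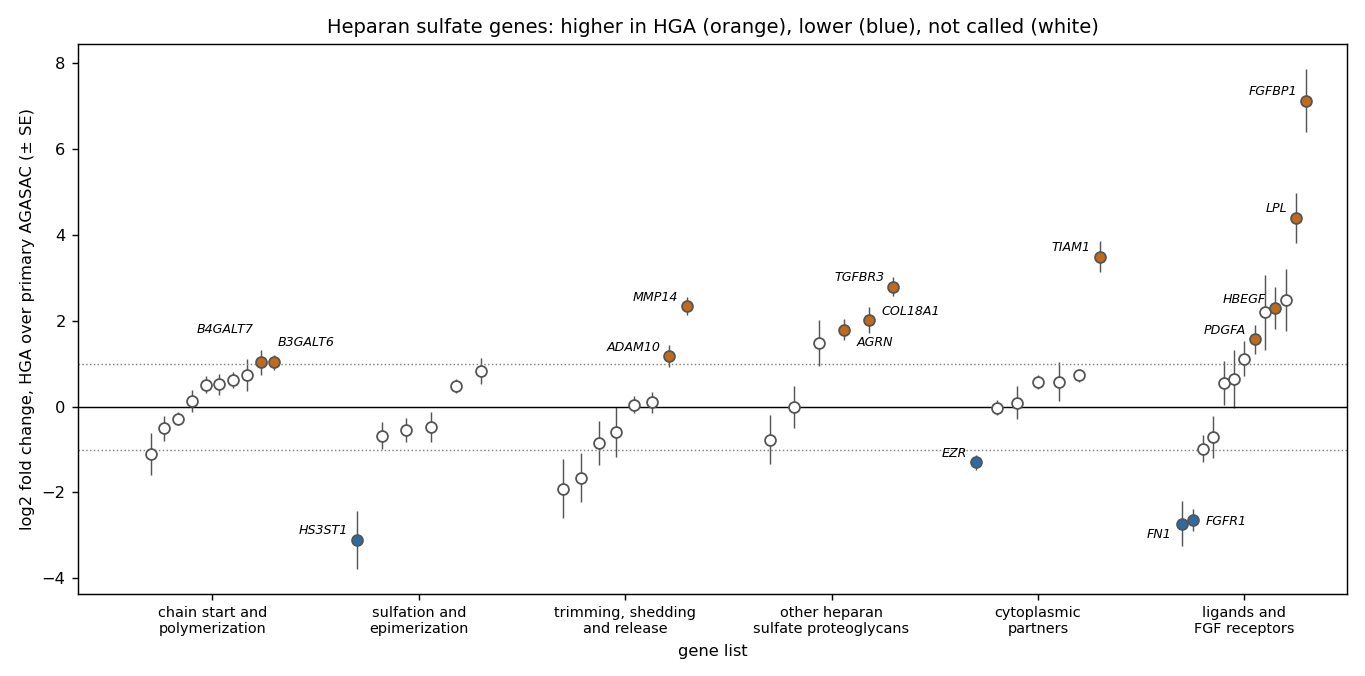
Log2 fold change of the 50 tested genes of heparan sulfate biology in HGA versus primary AGASAC (y axis, ± SE), by gene list (x axis). Filled points are called, orange higher and blue lower in HGA, with names. Of the 16 called genes 12 are orange and 4 are blue (HS3ST1, EZR, FN1 and FGFR1).

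In the metastases versus matched primary tumors, 0 of 52 tested genes of these lists were called by the edgeR quasi-likelihood test after Benjamini-Yekutieli adjustment, and 1 had an unadjusted p under 0.05. It was the secreted proteoglycan SPOCK2, higher in the metastases with a log2FC of 1.61 ± 0.25 (SE, unadjusted p 0.000123, adjusted p 1 by the edgeR test), and it was called by DESeq2 (adjusted p 0.0269). Against all 11 primary AGASAC its log2FC was 0.45 ± 0.62 (SE).

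Of 49 gene pairs compared within HGA (21 pairs) or primary AGASAC (28 pairs) on the log2(CPM + 1) scale, 0 passed a permutation test of Pearson's r or Spearman's rho after Benjamini-Hochberg adjustment over the 49. These pairs covered 7 genes in HGA and 8 in primary AGASAC, and a p that misses the threshold does not show that genes vary independently. The closest was SDC2 with GPC4 in primary AGASAC (r = 0.62, two-sided permutation p 0.0418, adjusted 0.784, and rho = 0.70, permutation p 0.0206, adjusted 0.794). It was 0.67 without the 2 tumors farthest from the median of SDC2 and 0.72 within the 7 tumors of one series of file names.

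As a description, the genes whose deviations from the 3 group means followed each member most closely over the 25 samples were sought among the 12070 genes tested. They were MXRA5 (r = 0.73) and MPZL1 (0.71) for SDC1, ACADM (0.83) and RPL32 (0.80) for SDC2, ERAP1 (0.72) and ATG9A (0.69) for SDC3, and SEMA7A (0.75) and TIMM17A (0.74) for SDC4. For the glypicans they were PPP2R2A (0.74) and CFAP221 (0.71) for GPC1, TGFB1 (0.84) and ARCN1 (0.79) for GPC3, and COMMD6 (0.74) and ARHGAP27 (0.72) for GPC4. Each is the top of 12070 values over the same libraries, which share depth, RNA quality and extraction batches.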

How the data were processed

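Total RNA of 25 FFPE tumor samples (10 HGA, 11 primary AGASAC, 4 metastases) was sequenced with QuantSeq 3′, with samples grouped by the titles in the labels. The authors trimmed the reads with cutadapt, aligned them to CanFam3.1 with STAR and counted them with featureCounts, the second round on an annotation extended by 2 kb at the 3′ end, with multi-mapped reads kept. Versions are not given in the sources used here. The deposited counts are whole numbers for each gene in each sample, not normalized, and all values given here were computed from them. A normalized signal (counts over size factors, and its mean over samples), which the authors added to the table, was not used. Columns of the authors' own comparison, namely a deposited log2 fold change with its standard error and a deposited p-value with its adjusted value, were not used either. The table has 24532 genes, 8449 of them named by LOC number, and every column of per-sample values could be assigned (0 left over). No coordinates or sequences are given.

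Counts were tested in R 4.3.3 with edgeR 4.0.16 (filterByExpr with minimum count 10 and minimum total 15, TMM, quasi-likelihood fit on the whole table) in place of the authors' DESeq2, which was an alternative (version 1.42.0). The adjustment was Benjamini-Yekutieli over all genes tested and the thresholds 0.05 and a log2FC of 1. The log2FC is the first group over the second, its SE was taken from the F statistic (absolute log2FC over the square root of F), and intervals are 95%. CPM of single samples used TMM factors over all 25 samples, with a pseudocount of 1 on the log2 scale. A count of 0 was read as up to 3 counts, and such floors cover counting error only. Each sample had 1562347 to 6389555 counts on genes, and genes with few counts are imprecise. Correlations used 100000 resamples (Python 3.11.15, scipy 1.17.1). The edgeR step was tested on simulated data.

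By the labels each metastasis shares its animal with a primary tumor, and the deviations of both from the group means correlated across genes with r of 0.730, 0.517, 0.572 and 0.428 in dogs 1 to 4, so the dog as a block was an alternative. The other samples have a number each in the labels, and p-values measure the spread between samples. No 2 samples of a group agreed within sampling noise (chi-square per degree of freedom at least 12.2). The other alternatives were RLE or library size alone, no filter or at least 10 counts in every sample, Benjamini-Hochberg adjustment, 1 fit over 25 samples, all 15 AGASAC samples or all 11 primary AGASAC, extraction batch or DV200 (the share of RNA fragments over a set length) as covariate, fits within an extraction batch or a series of file names, and leaving out each sample. All 10 members are named, with the 3 largest changes called in each gene list and the 2 genes most like each member. HBEGF, PDGFA, FGFR1, MMP7, SPOCK1, SPOCK2, SPOCK3, HS6ST2, HS3ST5, EXTL1, CDH5, RGS5, ACTA1, MBP, EXT1, EXT2, SULF1, SULF2, HPSE and SDCBP were named after their values were seen. The members and the lists were chosen with earlier results of these data known.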

Additional observations from a re-analysis of the deposited data

Results flagged for a closer look

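In 6 of 19 sets of values of 1 gene in HGA or in the metastases, a single sample stood apart by Dixon's 95% criterion on the CPM scale. Primary AGASAC was not put to this criterion. Chance meets it in about 1 of 20 sets of normally distributed values, which CPM need not be. On the log2(CPM + 1) scale, GPC2 in HGA met it by construction, with 9 samples at 0, and the other 5 sets did not meet it. HGA 4 was the high sample in 2 of them, with GPC3 at 208 CPM (339 counts) beside 0 to 17.8 CPM in the other HGA and SDC4 at 237 CPM beside 52.9 to 140 CPM. SDC2 was 226 CPM in HGA 10, the library with the fewest sebaceous transcripts, beside 19.5 to 121 CPM in the other HGA. GPC6 was 6.84 CPM in HGA 3 (12 counts) beside 0 to 3.29 CPM, and GPC2 was 1.70 CPM in HGA 9 (4 counts) beside 0 in the others, both near the limit of counting. Among the metastases, GPC3 was 247 CPM in that of dog 1 beside 13.4 to 43.4 CPM, and the primary tumor of that dog was also the highest of its group at 334 CPM.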

How the results depend on the processing

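SDC1, GPC1 and GPC4 were higher in HGA than in primary AGASAC under every alternative that tested them, and SDC1 was called in all of them. The number of the 10 genes called was 3, and 1 within extraction batch 8 (2 HGA, 3 primary AGASAC), where fewer tumors were tested. It was 2 within batch 5, within batch 6 and with at least 10 counts in every sample. DESeq2, no filter, 1 fit over 25 samples, all 15 AGASAC samples and one series of file names each gave 4, adding GPC6. Library size alone gave 4, adding SDC4. GPC6 was called in every alternative that tested it except within batch 8. Where a filter applied, GPC6 passed it mainly through AGASAC, as only 1 HGA had at least 10 counts. The fits over 25 samples and all 15 AGASAC samples held primary and metastasis of the same dogs with no term for the dog. The number of the 10 genes called was 3 to 5 when 1 tumor was left out, and 5 without HGA 4, by GPC3 and GPC6. Without HGA 10 it was 4, by GPC6 (log2FC −4.19, adjusted p 0.00408 by edgeR). In HGA versus metastases it was 4, 2 when each sample needed at least 10 counts, since SDC1 and GPC6 could then not be tested, 5 with Benjamini-Hochberg adjustment (SDC4, log2FC −1.02, adjusted p 0.0314) or by DESeq2 (GPC3), and 4 to 6 when 1 sample was left out.

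Genes of the heparan sulfate lists called in HGA versus primary AGASAC were 16, 8 with at least 10 counts in every sample, 3, 7 and 3 within batches 5, 6 and 8, and 14 to 19 when 1 tumor was left out. In the metastases 0 were called, and 1 (SPOCK2) by DESeq2. In HGA versus metastases, 10 became 18 by DESeq2, 6 with at least 10 counts and 19 with Benjamini-Hochberg adjustment. All genes called were 3032 in HGA versus primary AGASAC, against 1452 with at least 10 counts in every sample and 262, 637 and 338 within batches 5, 6 and 8. They were 0 in the metastases, against 5 by DESeq2 and 1 with the dog as a replicate block, and 2124 in HGA versus metastases, against 3211, 1153 and 3536 by DESeq2, with at least 10 counts and with Benjamini-Hochberg adjustment. Without HGA 10 they were 3373 in HGA versus primary AGASAC and 2588 in HGA versus metastases.

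The direction of SDC2 in HGA versus primary AGASAC (log2FC 0.18) was reversed with library size alone (−0.11), extraction batch (−0.28) or DV200 (−0.016) as covariate, within batch 5 (−0.64), batch 8 (−1.06) and one series of file names (−0.56), and ranged from −0.14 to 0.30 when 1 tumor was left out. GPC3 was reversed within batch 5 (0.87). In the metastases SDC1 was reversed with the dog as a replicate block (−0.059), and SDC2 (−0.14) in 1 fit over 25 samples and against all 11 primary AGASAC (both 0.23). When 1 sample was left out, the metastases gave −0.64 to 0.93 for SDC1, −0.37 to 0.048 for SDC2, −0.080 to 0.34 for SDC4, −2.53 to 0.14 for GPC3 and −0.32 to 1.2 for GPC6. HGA versus metastases gave −0.38 to 0.17 for SDC2 and −3.10 to 0.30 for GPC3. Over the log2FC of the 10 genes and of the list genes named by rule, and apart from the fits that left out a sample, 51 values lost their call, 3 gained one and 10 changed direction. None of the values given here was called in either direction except GPC3 without HGA 4, and the causes were not tested. The dog as a replicate block changed no call of the 10 genes.

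With library size alone, the median log2FC of all genes moved by −0.30 in HGA versus primary AGASAC, the share of calls higher in HGA went from 50.2% to 32.8%, and SDC4 was called (−1.02, adjusted p 0.0450 by edgeR). In HGA versus metastases the shift was −0.28 and the share went from 52.2% to 36.3%, and GPC3 was called by DESeq2 (−3.07, adjusted p 0.00242). Of 21 fits with 1 tumor left out, all called each of the 16 list genes except B4GALT7 and B3GALT6. Depth limits GPC2, GPC5, SDC3 and, in HGA, GPC6. The age of the FFPE blocks was not tested.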
